A study of Mus musculus with 9 samples.

Results

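The genes described are 10 genes of the NRF2 oxidative stress response: the regulators Nfe2l2 (which encodes NRF2) and Keap1, and Hmox1, Nqo1, Gclc, Gclm, Srxn1, Txnrd1, G6pdx and Prdx1, whose products degrade heme, reduce quinones, make glutathione, run the thioredoxin cycle and supply NADPH. They were taken from a named list matched by symbol to the Ensembl identifiers of the count and FPKM tables, and all 10 were found among 56398 features. The tables hold RNA sequencing of 9 tissue samples from BALB/c mice. The sham group was healthy colon (n = 3). The model group was tumour tissue labelled colon tumour, from mice injected with CT26 cells, a mouse colon carcinoma line, and given saline once daily at 6 g/kg (n = 3). The AC group was tumour tissue of the same origin from mice dosed once daily at 6 g/kg with Astragalus and Curcuma phaeocaulis, mixed 2:1 (n = 3). Every tumour thus came from a single injected cell line, the site of injection is not given in the sources used here, and the labels do not state whether each sample was a different animal. The p-values given here therefore rest on sample-to-sample spread alone, part of which may be technical.

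NRF2 is a transcription factor that is controlled mainly as a protein. In unstressed cells KEAP1 holds it and hands it to a CUL3 ubiquitin ligase for degradation, while oxidants and electrophiles modify KEAP1, so that NRF2 accumulates, pairs with a small Maf protein and activates genes that carry antioxidant response elements. In the intestine the pathway is known for protecting the epithelium against reactive food and bacterial products, and in many carcinomas it is active through mutation. Transcript levels therefore report the amount of Nfe2l2 RNA and the levels of its target genes, not the activity of the NRF2 protein.

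Several members carry a match to the core of the antioxidant response element close to their start sites, and these stretches are shown because the element is what makes a gene an NRF2 target. RefSeq promoter windows (GRCm38.p6, 250 bases before to 50 after the annotated start) were matched for 8 members: Nfe2l2, Keap1, Nqo1, Gclm, Srxn1, Txnrd1 (3 windows), G6pdx and Prdx1. Hmox1 and Gclc were not matched. The core bound by NRF2 and small Maf, TGACNNNGC, was searched on each strand with no other motif. It occurred in 6 of these 8 genes, 5 of them with the match before the start, beside 14% of 27025 genes with a window (16.5% of 79 other pathway genes), and in 6 of the 10 member windows beside 12.4% of 32851 windows. In Srxn1 the match lay after the start, and the windows of Keap1 and Nqo1 held none of these letters in that order. The matches before the start are given on the strand of the gene, with the core in capitals (GCNNNGTCA where it lies on the other strand), for Nfe2l2 at chr2:75704885-75704913, Gclm at chr3:122245413-122245441, Txnrd1 at chr10:82859104-82859132, G6pdx at chrX:74428919-74428947 and Prdx1 at chr4:116685456-116685484.
Nfe2l2: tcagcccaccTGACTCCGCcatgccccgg
Gclm: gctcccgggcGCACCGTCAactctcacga
Txnrd1: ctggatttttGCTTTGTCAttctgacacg
G6pdx: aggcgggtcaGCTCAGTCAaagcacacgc
Prdx1: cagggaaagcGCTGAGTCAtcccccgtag
A match is a description of the letters and does not show binding.

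Total counts ran from 15690038 to 23476056 per library. Sham 1 stood apart from sham 2 and sham 3, with a summed level of 6 B and plasma cell markers of 1223 CPM (counts normalised to library size, scaled by TMM over all 9 libraries) against 207 and 148, and 6 smooth muscle markers at 114 CPM against 1346 and 1472. Model 1 and AC 3 held more epithelial transcript than the other tumours, with Epcam, an epithelial adhesion protein, at 35.6 and 67.6 CPM whereas the remaining 4 tumours held 0.26 to 0.95 CPM and colon held 2809 to 2955. The tissue label was thus matched by abundant epithelial markers in colon, while in 4 of 6 tumours Epcam and Vil1 lay under 1 CPM. With sham 1 and the tumour library of this kind (model 1 or AC 3) left out together, the 8 members called against colon kept their direction and their call in each comparison, and Keap1 and G6pdx became called lower. Fits without sham 1 rest on sham 2 and sham 3 alone for colon, which were closer to each other than any other pair within a group.

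Per unit of transcript length (FPKM, as deposited by the authors), Prdx1 was the most abundant member in every group, at 124 ± 42.3 in colon, 106 ± 10.7 in model tumours and 107 ± 4.79 in AC tumours (SD, n = 3). In colon it was followed by Nfe2l2 (73.9 ± 2.47 FPKM) and Srxn1 (73.7 ± 4.11), whose ranges overlapped, then Gclc (59.5 ± 15.3), Nqo1 (41.8 ± 7.9) and Txnrd1 (39 ± 1.78), each overlapping its neighbour, and by G6pdx (24.1 ± 6.99) and Gclm (19.2 ± 2.09), which also overlapped. Keap1 (7.82 ± 0.71) and Hmox1 (2 ± 0.8) were lowest and separate from the others. In model tumours Prdx1 stayed first, and Hmox1, last in colon, came directly after it. Hmox1 reached 88.1 ± 7.71 FPKM and overlapped Prdx1, while Nqo1 was last at 2.25 ± 1.29. Nfe2l2 came next at 57.5 ± 6.1, G6pdx (31 ± 2.18), Srxn1 (29.5 ± 1.75) and Txnrd1 (26.4 ± 3.28) formed an overlapping series, and Gclc (18.8 ± 2.62), Keap1 (11.2 ± 0.48) and Gclm (10.9 ± 1.3) followed. AC tumours had the members in the same order, with Hmox1 at 83.6 ± 40.2 FPKM and ranges that overlapped between Hmox1 and Nfe2l2 and between Txnrd1 and Gclc as well.

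**Figure D1:**
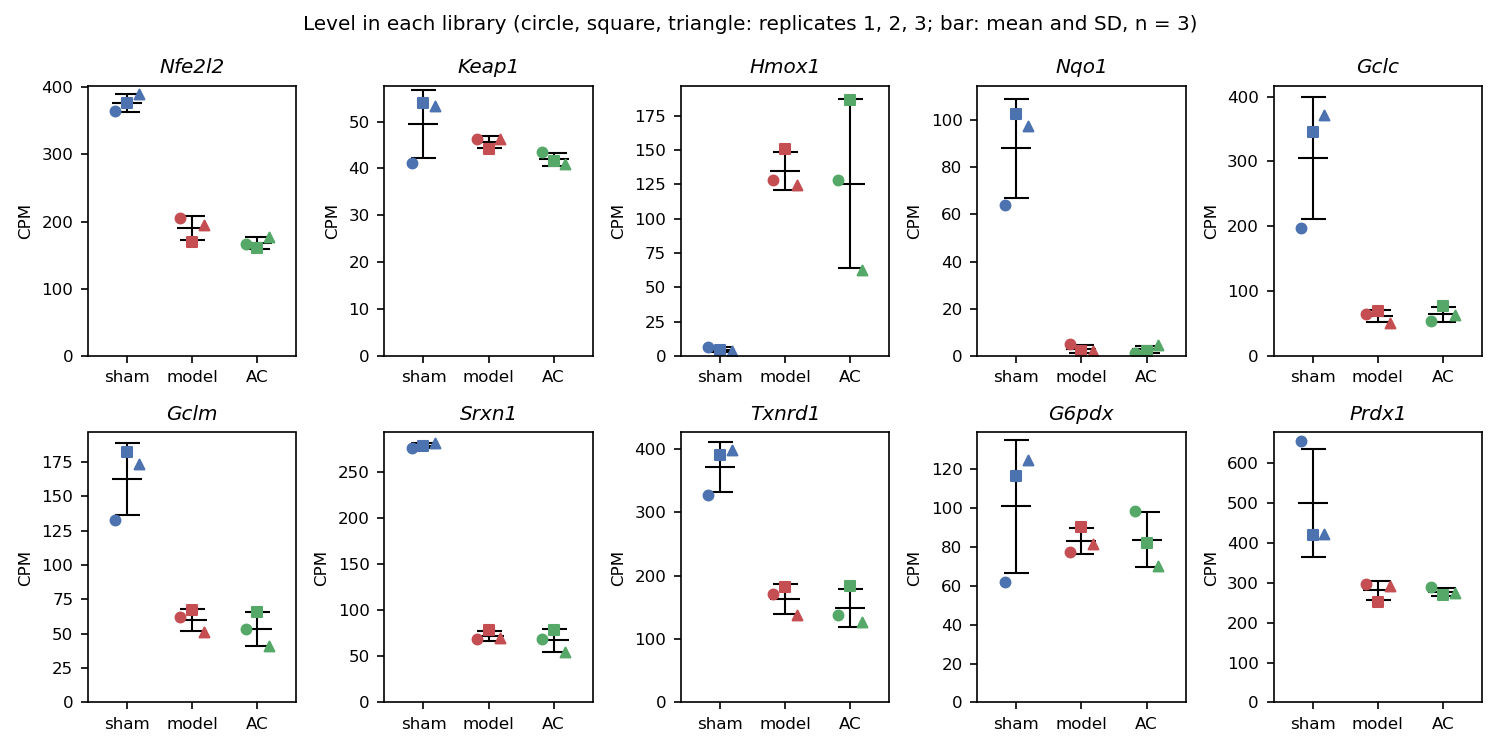
Level of each of the 10 genes (CPM scaled by TMM over the 9 libraries, linear axes from 0) in the sham, model and AC libraries, with mean and SD of 3. Hmox1 is near 0 in colon and between 62.5 and 186 CPM in tumours, Nqo1 shows the reverse, and Keap1 and G6pdx overlap between colon and tumours.

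The comparison of model tumours with colon describes untreated tumour against normal tissue. Hmox1 rose, and Nfe2l2, Nqo1, Gclc, Gclm, Srxn1, Txnrd1 and Prdx1 fell. Keap1 and G6pdx were not called. The counts are thus 1 member higher and 7 lower by edgeR's quasi-likelihood test at an adjusted p of 0.05, in a comparison in which 69.7% of the 18228 genes tested were called (36.8% higher and 32.9% lower). No tumour library entered the colon range for 1 higher and 7 lower members, as for 76.9% of all genes (41.3% higher and 35.6% lower). The median log2 fold change was -1.07 over the members and 0.12 over all genes tested. Without scaling factors the median of all genes was 0.72, and 67.3% of the calls were higher, against 52.8% with TMM.

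AC tumours against the same colon libraries gave the same calls for all 10 members, 1 higher and 7 lower, where 68.2% of 17832 genes were called (35.5% higher and 32.7% lower). Libraries did not overlap for 1 member higher and 7 lower, beside 75.8% of genes (40.5% higher and 35.3% lower). Both comparisons share the 3 sham libraries. In bulk tissue, fewer cells of a type and less RNA per cell cannot be told apart, which holds for every difference between colon and tumour given here. The 9 epithelial markers were lower in the tumours throughout: 8 fell and 1 was not called in each comparison, none was at 0 in any library, and their summed level was 27885 to 46618 CPM in colon, 192 to 529 in model tumours and 269 to 1078 in AC tumours. All 6 B and plasma cell markers (median log2 fold change -6.01 in model and -8.12 in AC tumours) and all 6 smooth muscle markers (-5.87 and -4.46) fell as well. The part of these differences in the members' falls was not tested.

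**Figure D2:**
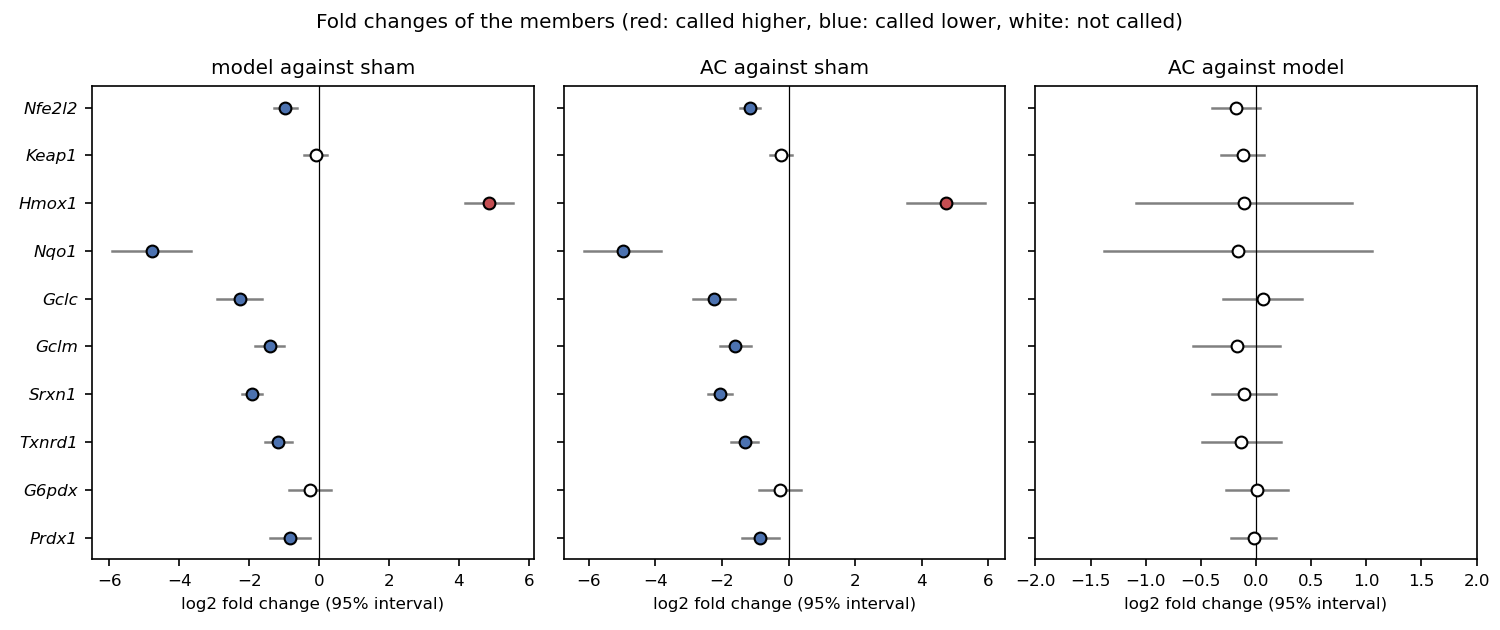
log2 fold change of each member with its 95% interval in the 3 comparisons (edgeR, n = 3 per group; the horizontal axis of AC against model is narrower). Against colon, Hmox1 lies far to the right and Nqo1 far to the left in model and AC tumours, and all 10 intervals of AC against model span 0.

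Of the regulators, Nfe2l2 (ENSMUSG00000015839, chromosome 2, 75675513 to 75704641, minus strand, GRCm38) measured 364, 376 and 390.2 CPM in colon, 205, 169.9 and 195 CPM in model tumours and 167, 161 and 177 CPM in AC tumours. The tumours lay below every colon library. The log2 fold change was -0.97 in model tumours (SE 0.14, edgeR adjusted p 0.000967) and -1.16 in AC tumours (SE 0.13, edgeR adjusted p 0.000373). Without scaling factors the Nfe2l2 values were smaller, -0.36 (edgeR adjusted p 0.0394) and -0.51 (edgeR adjusted p 0.00792), and those of the other called members also shifted upward: Gclc to -1.67 and -1.57, Gclm to -0.81 and -0.95, Srxn1 to -1.32 and -1.40, Txnrd1 to -0.56 and -0.66, Nqo1 to -4.20 and -4.34 and Hmox1 to 5.46 and 5.39, all still called, while the call of Prdx1 was lost (-0.22 in each comparison). Keap1 (ENSMUSG00000003308, chromosome 9, 21229730 to 21239361, minus strand), the adaptor that targets NRF2 for degradation, measured 41.2, 54.1 and 53.4 CPM in colon, 46.3, 44.2 and 46.3 in model tumours and 43.4, 41.6 and 40.9 in AC tumours. Its groups overlapped through sham 1, and the log2 fold changes of -0.10 (edgeR adjusted p 0.545) and -0.23 (edgeR adjusted p 0.173) were not called. Without sham 1 the value was -0.20 in model tumours (edgeR adjusted p 0.0577) and -0.42 in AC tumours (edgeR adjusted p 0.00402). Keap1 was also called lower in model tumours without sham 1 and model 1 (-0.30, edgeR adjusted p 0.0271), and in AC tumours by DESeq2 (-0.34, adjusted p 0.0249). Without scaling factors Keap1 was called higher instead, at 0.51 in model and 0.42 in AC tumours, and its FPKM, which carry no such factors, were 7.02 to 8.38 in colon and 10.2 to 11.5 in tumours. An antisense gene, Gm16754, shares 510 exon bases with Keap1, and because the strand setting of the counting is not given, reads there cannot be assigned.

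The ratio of 2 genes within a library does not depend on the scaling between libraries. The FPKM ratio of Nfe2l2 to Keap1 was 10.9, 8.61 and 9.04 in colon, 5.47, 4.76 and 5.21 in model tumours and 4.74, 4.78 and 5.36 in AC tumours. Colon and tumours did not overlap in this ratio, while model and AC tumours did.

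Hmox1 (ENSMUSG00000005413, chromosome 8, 75093621 to 75100589, plus strand), the inducible heme oxygenase that cleaves heme into biliverdin, carbon monoxide and iron, measured 6.38, 4.01 and 3.54 CPM in colon, 129, 150.5 and 125 CPM in model tumours and 128, 186 and 62.5 CPM in AC tumours. Every tumour was above every colon library, and AC 3 was the lowest tumour and AC 2 the highest. The rise was 29.1-fold in model tumours (log2 fold change 4.86, SE 0.29, edgeR adjusted p 3.68e-05) and 26.7-fold in AC tumours (4.74, SE 0.48, edgeR adjusted p 0.000298). Hmox2, the constitutive heme oxygenase, was not called in either comparison (log2 fold changes -0.13 and -0.07), and the FPKM ratio of Hmox1 to Hmox2 went from 0.166 to 0.247 in colon to between 3.03 and 8.31 in tumours.

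Several marker lists rose with Hmox1. In model tumours 6 of 6 fibroblast markers, 5 of 5 tested neutrophil markers and 4 of 5 endothelial markers rose, and in AC tumours 4, 5 and 4 of them did. Of 6 T and NK cell markers, 2 rose and 2 fell in each comparison. Of all genes tested, 36.8% were called higher in model and 35.5% in AC tumours. Macrophages and red blood cells, which are known to handle heme, are given in more detail. Of 10 macrophage markers, 8 rose, Mertk fell and Marco, the one marker at 0 in a library (sham 3), was not tested in model tumours, with a summed level of 229 to 239 CPM in colon, 752 to 994 in model and 862 to 1262 in AC tumours. In AC tumours the counts were the same. All 4 tested of 6 red blood cell markers rose in each comparison, with a summed level of 9.87 to 15.8 CPM in colon, 66.2 to 155 in model tumours and 30.3 to 161 in AC tumours. Alas2 was at 0 in sham 1, and Slc4a1 in sham 1 and sham 2. Among the tumours, AC 3 was lowest and AC 2 highest for Hmox1 and for the red blood cell sum alike, while the macrophage sum was lowest in model 1 (752 CPM) and highest in AC 1 (1262 CPM), with AC 3 at 862. The part of these cells in the Hmox1 level was not tested.

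**Figure D3:**
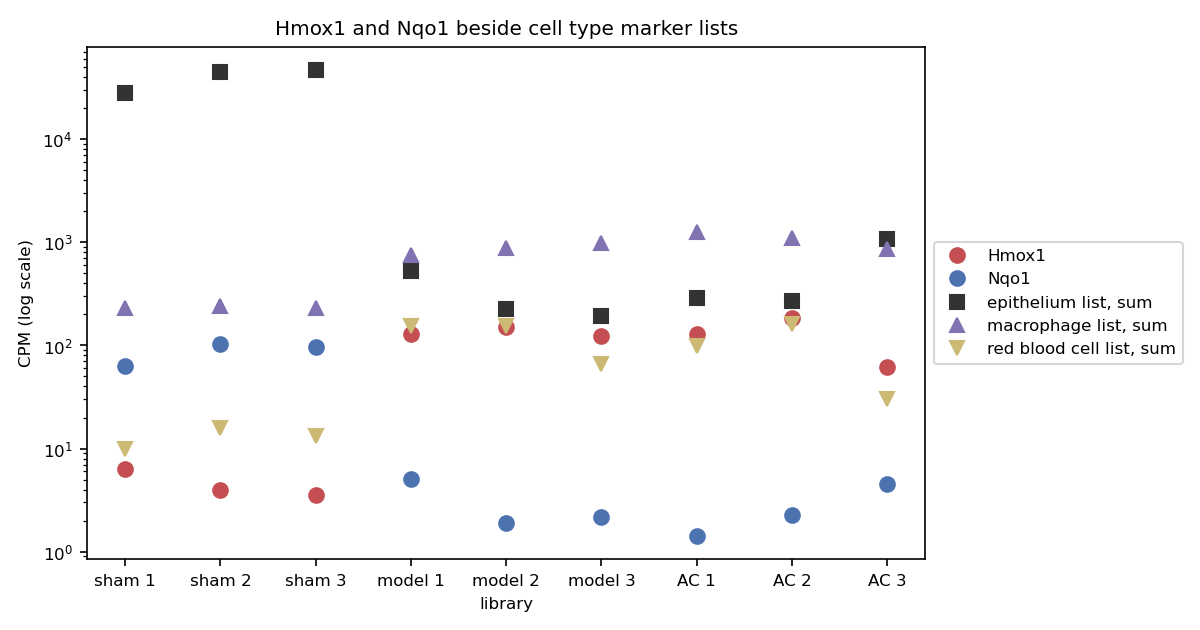
Hmox1 and Nqo1 beside the summed levels of the epithelium, macrophage and red blood cell marker lists in each library (CPM, log axis, 1 point per library). Hmox1 and the red blood cell sum are lowest among tumours in AC 3, and Nqo1 and the epithelial sum are highest among tumours in model 1 and AC 3.

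Nqo1 (ENSMUSG00000003849, chromosome 8, 107388225 to 107403206, minus strand), the NAD(P)H quinone reductase often used as a readout of NRF2, measured 63.9, 102.5 and 97.5 CPM in colon, 5.06, 1.91 and 2.18 in model tumours and 1.43, 2.27 and 4.51 in AC tumours. No tumour came near colon, and the highest tumour values were in model 1 and AC 3, the libraries with the most epithelial transcript. Nqo1 fell 27.7-fold in model tumours (log2 fold change -4.79, SE 0.47, edgeR adjusted p 0.000202) and 31.6-fold in AC tumours (-4.98, SE 0.49, edgeR adjusted p 0.000248). With sham 1 and the tumour library rich in epithelial transcript left out, the log2 fold changes were -5.66 and -5.83. Nqo2, a related quinone reductase, rose from 22.8 ± 2.88 to 43.4 ± 4.25 CPM in model tumours (log2 fold change 0.95, edgeR adjusted p 0.00189), and the FPKM ratio of Nqo1 to Nqo2 was 8.49 to 11.2 in colon and 0.085 to 0.279 in tumours.

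Gclc and Gclm encode the catalytic and the modifier subunit of glutamate-cysteine ligase, the rate-limiting enzyme of glutathione synthesis. Gclc (ENSMUSG00000032350, chromosome 9, 77754535 to 77794485, plus strand) measured 198, 346 and 372 CPM in colon, 63.9, 70.0 and 51.1 in model tumours and 53.6, 76.7 and 62.8 in AC tumours. It fell 4.84-fold in model tumours (log2 fold change -2.28, SE 0.26, edgeR adjusted p 0.0004) and 4.69-fold in AC tumours (-2.23, SE 0.26, edgeR adjusted p 0.000505), and sham 1 was the colon library nearest to the tumours. Without sham 1 the Gclc values were -2.50 and -2.54. Gclm (ENSMUSG00000028124, chromosome 3, 122245557 to 122270732, plus strand) measured 133, 182 and 174 CPM in colon, 62.0, 67.0 and 51.0 in model tumours and 53.3, 65.8 and 41.2 in AC tumours. It fell 2.67-fold (log2 fold change -1.42, SE 0.17, edgeR adjusted p 0.000494) and 3.04-fold (-1.61, SE 0.19, edgeR adjusted p 0.000563). The subunits did not fall alike: the FPKM ratio of Gclc to Gclm was 2.48, 3.17 and 3.58 in colon and 1.67 to 1.75 in model tumours, with no overlap, whereas AC tumours reached 2.55 in AC 3 and overlapped colon.

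In the thioredoxin system, Txnrd1 (thioredoxin reductase) keeps thioredoxin reduced with NADPH, Prdx1 (a peroxiredoxin) destroys hydrogen peroxide and Srxn1 (sulfiredoxin) repairs overoxidised peroxiredoxins. Srxn1 (ENSMUSG00000032802, chromosome 2, 152105516 to 152111376, plus strand) was the most even member in colon, at 276, 278 and 282 CPM, and measured 69.0, 78.4 and 69.8 in model tumours and 69.3, 78.3 and 54.4 in AC tumours. It fell 3.81-fold in model tumours (log2 fold change -1.93, SE 0.12, edgeR adjusted p 4.12e-05) and 4.15-fold in AC tumours (-2.05, SE 0.15, edgeR adjusted p 9.3e-05). Txnrd1 (ENSMUSG00000020250, chromosome 10, 82833951 to 82897712, plus strand) measured 327, 391 and 399 CPM in colon, 171, 182 and 137 in model tumours and 138, 184 and 127 in AC tumours, a fall of 2.24-fold (edgeR adjusted p 0.000931) and of 2.49-fold (edgeR adjusted p 0.000727). In neither gene did a tumour reach the colon range.

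Prdx1 (ENSMUSG00000028691, chromosome 4, 116685544 to 116700822, plus strand) measured 657, 421 and 423 CPM in colon, 297, 253 and 293 in model tumours and 288, 269 and 274 in AC tumours. It fell 1.77-fold (log2 fold change -0.82, SE 0.24, edgeR adjusted p 0.0195) and 1.81-fold (-0.86, SE 0.23, edgeR adjusted p 0.0151), the weakest of the calls. Sham 1 was the highest library, and without it the values were -0.55 (edgeR adjusted p 0.0011) and -0.67 (edgeR adjusted p 0.0002). The call was lost without model 2 (edgeR adjusted p 0.0879), model 3 (0.071), AC 1 (0.0563) or AC 2 (0.0675), and without scaling factors (log2 fold change -0.22 in each comparison).

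G6pdx (ENSMUSG00000031400, chromosome X, 74409483 to 74429194, minus strand) encodes glucose-6-phosphate dehydrogenase, which makes NADPH in the pentose phosphate pathway. It measured 61.8, 116 and 125 CPM in colon, 77.5, 90.5 and 81.5 in model tumours and 98.7, 82.1 and 70.3 in AC tumours. Sham 1 lay below all tumours and sham 2 and sham 3 above them, and the log2 fold changes of -0.25 (edgeR adjusted p 0.385) and -0.26 (edgeR adjusted p 0.407) were not called. Without sham 1 they were -0.50 (edgeR adjusted p 0.00106) and -0.59 (edgeR adjusted p 0.00797). Without scaling factors they were 0.36 and 0.40, not called. The gene shares 418 exon bases with Ikbkg on the opposite strand, and its near-identical copy G6pd2 had 0 counts in all libraries. Of the 5 members whose promoter match is printed above, Nfe2l2, Gclm, Txnrd1 and Prdx1 fell in tumours and G6pdx was not called. Srxn1, with its match after the start, fell as well. Of the members with a window but no match, Keap1 was not called and Nqo1 had the lowest log2 fold change of the 10. Hmox1 and Gclc had no window, and sites more than 250 bases before the start were not searched.

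AC tumours were compared with model tumours to ask what the herb pair changed. None of the 10 members was called, and the log2 fold changes ran from -0.18 (Nfe2l2) to 0.06 (Gclc), with a median of -0.12 beside 0.01 over all genes. By edgeR 0% of 17137 genes were called (smallest adjusted p 0.103), 2253 (13.1%) had an unadjusted p under 0.05 with no member among them, limma-voom called 0 and DESeq2 called 306. No member was among the calls of any tool or alternative setting. Only for Keap1 did the libraries not overlap, at 40.9 to 43.4 CPM in AC against 44.2 to 46.3 in model tumours (log2 fold change -0.12, SE 0.09, edgeR adjusted p 0.558). That is 1 of 10 members, lower, beside 19% of all genes tested (9.06% higher and 9.98% lower).

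The precision of that comparison differed between members. The 95% interval of the ratio of AC to model tumours was 0.855 to 1.13 for Prdx1, 0.804 to 1.05 for Keap1, 0.826 to 1.22 for G6pdx and 0.759 to 1.03 for Nfe2l2. It was 0.757 to 1.14 for Srxn1, 0.711 to 1.17 for Txnrd1, 0.676 to 1.17 for Gclm and 0.81 to 1.34 for Gclc. For Hmox1 and Nqo1 it was wider, 0.471 to 1.83 and 0.386 to 2.07.

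For Hmox1 the value turned on AC 2, its highest tumour, and AC 3, its lowest. Without AC 2 the log2 fold change of Hmox1 was -0.50 in place of -0.11 (edgeR adjusted p 0.71). Without AC 3 the value of Hmox1 was 0.21 (edgeR adjusted p 0.503), Srxn1 went from -0.11 to 0.01, and 569 genes in all were called, none of them a member. AC 3 was the lowest of the 6 tumours for 6 of 10 members, namely Keap1, Hmox1, Gclm, Srxn1, Txnrd1 and G6pdx. AC 2 or model 2 was the highest for 5 members: Hmox1, Gclc and Txnrd1 in AC 2, Gclm and Srxn1 in model 2. The shares of all genes with these libraries at the extremes were not computed, so neither count can be read as particular to the members. Expressed as the log2 deviation from the mean of the 6 tumours, AC 3 stood at -0.99 for Hmox1, -0.44 for Gclm, -0.35 for Srxn1 and -0.29 for Txnrd1, and AC 2 at 0.59, 0.23, 0.17 and 0.25. Model 2 lay above the mean for the same 4 genes, at 0.28, 0.26, 0.18 and 0.23. Nfe2l2 itself did not share this order: its lowest tumour was AC 2 and its highest was model 1. Over the 6 tumours the coefficient of variation was 52.1% for Nqo1, 31.1% for Hmox1, 11.9% to 17.7% for Gclc, Gclm, Srxn1, Txnrd1 and G6pdx, 9.7% for Nfe2l2, 6.1% for Prdx1 and 5.3% for Keap1.

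**Figure D4:**
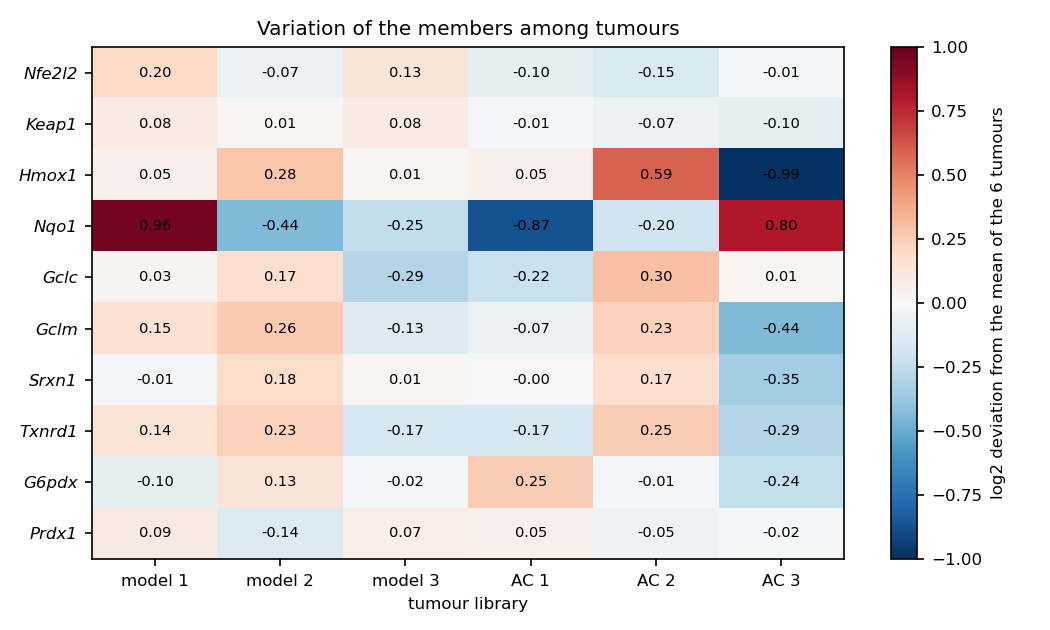
log2 deviation of each member in each tumour library from its mean over the 6 tumours (colour scale from -1 to 1, values printed in the cells). AC 3 is low for Hmox1, Gclm, Srxn1 and Txnrd1, AC 2 and model 2 are high for them, and Nqo1 is high in model 1 and AC 3.

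Beyond the 10 members, 95 genes of the wider pathway were read from the same fits. In model tumours 18 rose, 49 fell and 27 were not called of 94 tested, with a median log2 fold change of -0.78 beside 0.12 over all genes. Of all genes 69.7% were called (36.8% higher and 32.9% lower), so the share called in either direction was near that of all genes. By direction the shares differed, with more falls than rises among pathway genes and slightly more rises than falls among all genes. The same shares of all genes are the background of each subgroup count that follows for model tumours. In AC tumours 17 rose, 47 fell and 30 were not called against colon, where 68.2% of all genes were called (35.5% higher and 32.7% lower). Without scaling factors 30 rose and 34 fell in model tumours, and 32 rose and 31 fell in AC tumours. Of all genes, 9060 were then called higher and 4405 lower of 18228 in model tumours. In AC tumours 8832 were called higher and 4114 lower of 17832.

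Of 12 tested partners and regulators of NRF2, 3 rose and 2 fell in model tumours. The small Maf genes, whose products pair with NRF2, divided: Mafg rose from 62.1 ± 18.3 to 138 ± 9.82 CPM and Maff from 21.3 ± 4.83 to 45.4 ± 12.4, while Mafk fell from 91.3 ± 22.4 to 42.6 ± 5.23 (edgeR adjusted p 0.00281, 0.00696 and 0.00385). Without scaling factors Mafk was not called (-0.46, edgeR adjusted p 0.0561). Bach1, the heme-sensitive repressor of Hmox1 and other NRF2 targets, fell from 123 ± 12.1 to 78.6 ± 6.93 CPM in model tumours (log2 fold change -0.63, edgeR adjusted p 0.00596) and to 71.3 ± 4.36 in AC tumours (-0.78, edgeR adjusted p 0.00175; -0.13 and not called without scaling factors). Pgam5, a mitochondrial phosphatase that binds KEAP1, rose from 6.74 ± 1.29 to 31.3 ± 4.87 CPM. Cul3, Sqstm1 and Nfe2l1 were not called, at log2 fold changes of -0.07, 0.16 and 0.32.

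**Figure D5:**
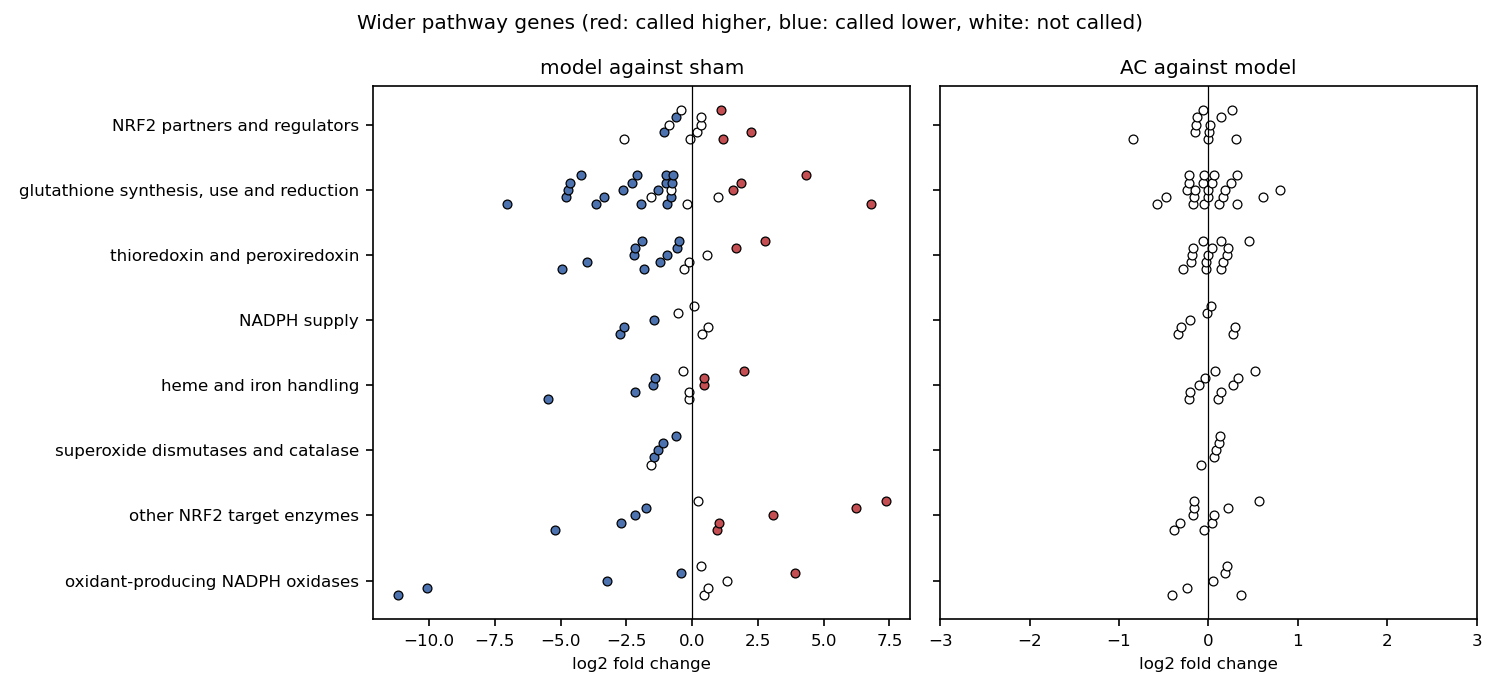
log2 fold change of each tested gene of the wider pathway by subgroup, for model tumours against colon and AC against model tumours (1 point per gene; the right axis is narrower). Red and blue points lie on each side of 0 in most subgroups against colon, and every point is white in AC against model.

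Of 26 genes of glutathione synthesis, use and reduction, 4 rose and 18 fell in model tumours. Gss, which completes glutathione, fell from 143 ± 15.6 to 29.0 ± 2.17 CPM and Gstm5, a glutathione transferase, from 42.8 ± 1.45 to 1.6 ± 0.37. Gpx2, the epithelial glutathione peroxidase, fell from 87.1 ± 7.52 CPM to 1.71, 0 and 0.0518 in the 3 model tumours, the highest value being that of model 1. The genes that rose were Gpx8, a peroxidase of the endoplasmic reticulum (from 2.96 ± 0.0095 to 58.2 ± 8.23 CPM), Chac1, which degrades glutathione (from 0.156 ± 0.085 to 17.3 ± 6.77), Slc3a2, the heavy chain of the cystine transporter (from 46 ± 2.53 to 165 ± 29.4), and Abcc1, an exporter of glutathione conjugates (from 38.8 ± 11.1 to 113 ± 14). The colon level of Chac1 rests on very few counts, since 3 counts equal 0.151 to 0.187 CPM in colon before TMM scaling. Slc7a11, the cystine-importing light chain and a well known NRF2 and ATF4 target, was not called: it measured 38.7 CPM in sham 1 and 4.57 and 4.04 in the other colon libraries, against 24.1 to 37.5 in model tumours. Transferases of the Gsta, Gstm and Gstp families have close copies, so their values are uncertain.

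Of 15 thioredoxin and peroxiredoxin genes, 2 rose and 10 fell in model tumours. Prdx6 fell most, from 3845 ± 147 to 124 ± 16.4 CPM (log2 fold change -4.94, SE 0.20, edgeR adjusted p 1.78e-05), and the FPKM ratio of Prdx6 to Prdx1 went from between 3.54 and 5.93 in colon to between 0.229 and 0.371 in tumours. Prdx4, the peroxiredoxin of the endoplasmic reticulum, rose from 10.5 ± 2.04 to 70.4 ± 6.82 CPM, and Txnrd3, a related reductase, rose as well (log2 fold change 1.66, edgeR adjusted p 0.00196). Txn1, the cytosolic thioredoxin, fell from 690 ± 175 to 150.3 ± 25 CPM and Txnip, its inhibitor, from 1233 ± 134 to 261 ± 16.

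Of 7 NADPH-supplying genes, 3 fell in model tumours and none rose. Pgd, the step after G6pdx in the pentose phosphate pathway, fell from 460.5 ± 97.7 to 165 ± 5.34 CPM, Taldo1 (transaldolase) from 376 ± 51.5 to 55.7 ± 5.69 and Idh1 (cytosolic isocitrate dehydrogenase) from 358 ± 24.1 to 59 ± 2.44. Of 5 superoxide dismutase and catalase genes, 4 fell, among them Cat, catalase, from 93.9 ± 4.97 to 33.4 ± 2.13 CPM and Sod1 from 190.02 ± 7.67 to 75.7 ± 7.46.

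Among 10 heme and iron genes, 3 rose and 4 fell in model tumours. Slc48a1, a heme transporter, rose from 20.5 ± 2.37 to 78.4 ± 10.2 CPM (log2 fold change 1.96, SE 0.17, edgeR adjusted p 0.000127), and Blvrb, a biliverdin reductase, from 28.5 ± 3 to 38.6 ± 4.44. Slc40a1, the iron exporter ferroportin, fell from 180.4 ± 67 to 4.03 ± 0.67 CPM (log2 fold change -5.47, SE 0.37, edgeR adjusted p 5.13e-05), and Fth1, ferritin heavy chain, from 2926 ± 53 to 1033 ± 119. Hmox1 rose in the same libraries, as did Slc48a1 and Blvrb, while Fth1 and Slc40a1 fell. Ferritin genes have processed copies, and their values are uncertain.

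Of 10 other enzymes known as NRF2 targets, 5 rose and 4 fell. Aox1, aldehyde oxidase, rose from 1.25 ± 0.73 to 93.5 ± 13.7 CPM (log2 fold change 6.24, SE 0.44, edgeR adjusted p 5.96e-05), and Ephx1, microsomal epoxide hydrolase, from 8.19 ± 3.62 to 69.3 ± 7.37. Cbr1, a carbonyl reductase, fell from 90.1 ± 30.3 to 2.33 ± 0.5 CPM, and Osgin1, an oxidative stress-induced growth inhibitor, from 29.1 ± 7.23 to 4.33 ± 1.08.

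In AC against model tumours none of 87 tested pathway genes was called by edgeR. The smallest unadjusted p was that of Gpx3, the secreted glutathione peroxidase, at 8.55, 9.9 and 10.3 CPM in AC and 6.66, 5.09 and 4.67 in model tumours (log2 fold change 0.81, SE 0.20, edgeR adjusted p 0.249). DESeq2 called Gpx3 (adjusted p 0.0368) and no other pathway gene, while it called 306 of all 17137 genes. Txn2, the mitochondrial thioredoxin, followed at 102, 115 and 81.6 CPM in AC and 69.2, 77.7 and 70.9 in model tumours (log2 fold change 0.45, edgeR adjusted p 0.257). Leaving out AC 3, it was called higher (0.57, edgeR adjusted p 0.0287), and Cybb, chosen here after its values were seen, was called lower (-0.53, edgeR adjusted p 0.045). At that setting 569 of all 17749 genes were called, 150 higher and 419 lower.

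The genes with the pattern most like that of Hmox1 over the 9 libraries, by the root mean square difference of centred log2(CPM + 0.5) among 11040 genes, were Rcor2 (0.229), the macrophage growth factor gene Csf1 (0.23) and Chst1 (0.256). Rcor2 averaged 0.387 CPM in colon, under the 0.5 CPM added before the log, and 20.9 in model and 17.2 in AC tumours. Its likeness thus depends on that added value. Csf1 averaged 5.02 CPM in colon, 167 in model and 165 in AC tumours. For Nfe2l2 they were Setd3 (0.07), Gna13 (0.08) and Mocs2 (0.082), which averaged 188, 325 and 58.4 CPM in colon and 90.7, 155 and 28.5 CPM in model tumours. These differences describe likeness over libraries that share their groups.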

How the data were processed

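RNA-seq libraries of 9 samples were analysed. RNA extraction used Trizol and library preparation the VAHTS Universal V6 kit, per the labels' protocols. The authors deposited raw counts (the submitters' processing notes name featureCounts 1.5.0-p3 and mm9) and FPKM values per gene, which equal those counts divided by gene length and total count. The aligner, like the strand setting, is not given in the sources used here. Gene lengths implied by the deposited files lay within 1% of GENCODE M21 exons in 96.8% of 22279 genes having 20 or more counts, and GENCODE M21 is a GRCm38 annotation, so coordinates are GENCODE M21 positions.

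For every comparison, the 6 libraries concerned were fitted in edgeR 4.0.16 (R 4.3.3, TMM, filterByExpr, robust quasi-likelihood fit, Benjamini-Hochberg over all genes, threshold 0.05). The fit was also run on simulated counts in which a small set of genes was changed in random directions. Such counts cannot check the scaling between colon and tumour, where most genes were called. DESeq2 1.42.0 and limma 3.58.1 were alternatives. Levels are CPM scaled by TMM over 9 libraries, and folds come from the fits. All 10 members passed the low-count filter in every comparison. The members, the wider list, the markers and the rules were chosen with earlier results of these data known. Named pathway genes were drawn from those with the smallest p per subgroup, direction and comparison; others are examples chosen after their values were seen. Genes compared for likeness had a mean of at least 5 CPM. No 2 libraries of a group agreed within sampling noise. Sham 2 and sham 3 came nearest, at a chi-square per degree of freedom of 3.06, and the other pairs within a group ran from 10.19 to 118.84.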

Additional observations from a re-analysis of the deposited data

How the results depend on the processing

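Calls of 7 of 10 members held under all 16 alternatives in each comparison with colon; the exceptions were Keap1, G6pdx and Prdx1. Without scaling factors, 2 members were called higher in each comparison with colon, pathway genes called higher were 30 in model and 32 in AC tumours, 31 pathway genes were called lower in AC tumours, Keap1 reversed to 0.51 and 0.42 and G6pdx to 0.36 and 0.40 (log2, model and AC). At that setting 9060 of 18228 genes were called higher in model tumours and 4405 lower. In AC tumours the counts were 8832 higher and 4114 lower of 17832 genes. In AC against model, where edgeR called 0 genes (2253 at an unadjusted p under 0.05), 105 were called without a low-count filter, 306 by DESeq2, 94 with model 1 and AC 3 left out, and 0 to 569 with single libraries left out, the 569 without AC 3. Pathway genes called there were 1 higher by DESeq2, and 0 to 1 higher and 0 to 1 lower with single libraries left out. Signs of uncalled members near 0 also reversed: Prdx1 to 0.01 without scaling factors and 0.02 without model 1 and AC 3, and Hmox1 to 0.18 without those libraries. With single libraries left out the log2 fold change of Hmox1 spanned -0.50 (without AC 2) to 0.21 (without AC 3). The span was -0.75 to 0.42 for Nqo1, -0.23 to 0.01 for Srxn1, -0.12 to 0.11 for G6pdx, -0.09 to 0.02 for Prdx1 and -0.08 to 0.18 for Gclc. The causes were not tested. No member was called there under any alternative.

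The labels do not state whether replicate numbers pair the samples. Deviations of same-numbered libraries correlated at -0.579, 0.486 and -0.369 between model and AC. These values cannot decide it, since deviations within a group sum to 0. With the replicate number as a block, all 10 members kept their calls in each comparison, and 0 genes were called in AC against model. Depth limits Nqo1 in tumours, with 30 to 136 counts per library, and Hmox1 in colon, with 50 to 82.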

Other observations

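Of 9 genes of the NADPH oxidases, enzymes that make reactive oxygen species, 1 rose, 4 fell and 4 were not called in model tumours, and 1 rose, 3 fell and 5 were not called in AC tumours, beside 69.7% and 68.2% of all genes called. Duox2, the dual oxidase of the intestinal epithelium, measured 725, 817 and 836 CPM in colon, and 1.82, 0.0455 and 0.104 CPM in model tumours and 0.095, 0.277 and 0.682 in AC tumours, where model 1 and AC 3 were the highest of their groups. Duoxa2, its maturation factor, had 1612 to 2452 counts in colon libraries and 0 to 3 in any tumour. Nox1, the colonic oxidase, fell as well (log2 fold change -3.24 in model tumours, edgeR adjusted p 0.00607). Nox4 rose from 0.178 ± 0.12 to 2.78 ± 0.66 CPM (log2 fold change 3.92, edgeR adjusted p 0.000611). Its colon level rests on very few counts, since 3 counts equal 0.151 to 0.187 CPM in colon before TMM scaling. Cybb, Ncf1 and Ncf4, which encode parts of the phagocyte oxidase, were not called in either comparison with colon. In colon they were highest in sham 1, where Cybb measured 77.0 CPM against 12.7 and 9.7 in sham 2 and sham 3. Model tumours had 73.3 to 90.7 CPM of Cybb.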
